A study of Rattus norvegicus with 6 samples.

Results

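The SOX, FOX, TBX and GATA factors are 4 families of transcription factors, examined here together with Nkx2-1 in total lung of Sprague-Dawley rats. Members were taken by gene symbol, without Foxj1, Foxp3, Foxm1, Tbx21, Eomes, Gata2 and Gata3. Of 77 matching symbols, the 57 with a value of 1 or more in 3 or more libraries were kept, out of 15386 genes tested and 19828 entries in the table. They comprised 15 SOX, 28 FOX, 10 TBX and 3 GATA genes and Nkx2-1. Bulk RNA-seq gave 3 libraries from rats of wild type (WT) and 3 from rats lacking Ahr (Ahr-KO), numbered 0 to 2 within a group. Every library was labelled with Sugen-Hypoxia and day 56, so controls and knockouts alike had received Sugen, a VEGF receptor inhibitor, and low oxygen, a combination used in rats to model pulmonary hypertension. The sources used here name neither the kind of Ahr edit nor the age of the animals. The comparison asked how these factors stood in the lung without Ahr, a ligand-activated transcription factor.

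SOX proteins bind and bend DNA through an HMG box, FOX proteins bind it through a winged helix, TBX proteins through a T-box and GATA proteins through zinc fingers. NKX2-1 is the homeodomain factor that marks lung epithelium from its origin in the foregut, where it acts with FOXA2 and GATA6. SOX17 in endothelium, TBX4 in mesenchyme and FOXF1 in mesenchyme and capillaries are each known from human pulmonary vascular disease.

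The stretches upstream of the start sites of 4 members show how the DNA motif of AHR itself is placed among them. Of the 57 members, 34 matched an entry among RefSeq promoters of the GRCr8 build, and the first start listed for each gene was used. Printed are the 250 bases before the start, 5′ to 3′ on the gene's strand. Capitals mark the AHR element core, GCGTG or its reverse complement CACGC. Foxo4, Foxo6 and Foxo1 are shown because they are the FOXO members with an entry, of which Foxo4 was called (Foxo3 had none), and Foxa2 because it was called and its stretch holds no such core.
Foxo4, chrX:70425313-70425562, plus strand: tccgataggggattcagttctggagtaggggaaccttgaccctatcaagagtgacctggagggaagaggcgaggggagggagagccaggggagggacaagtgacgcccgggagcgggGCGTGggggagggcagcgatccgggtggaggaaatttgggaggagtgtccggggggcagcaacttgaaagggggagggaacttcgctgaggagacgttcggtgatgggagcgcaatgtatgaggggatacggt
Foxo6, chr5:139161630-139161879, minus strand: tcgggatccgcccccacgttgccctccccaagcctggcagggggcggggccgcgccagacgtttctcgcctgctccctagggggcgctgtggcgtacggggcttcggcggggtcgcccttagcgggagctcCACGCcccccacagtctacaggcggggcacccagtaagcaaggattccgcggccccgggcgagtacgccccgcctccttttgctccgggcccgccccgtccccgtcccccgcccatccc
Foxo1, chr2:138462724-138462973, plus strand: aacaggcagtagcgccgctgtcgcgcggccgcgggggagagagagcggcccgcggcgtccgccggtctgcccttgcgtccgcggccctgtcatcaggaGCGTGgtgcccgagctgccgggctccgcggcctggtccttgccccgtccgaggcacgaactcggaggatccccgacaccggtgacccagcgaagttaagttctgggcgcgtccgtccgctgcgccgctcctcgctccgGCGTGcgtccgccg
Foxa2, chr3:155927509-155927758, minus strand: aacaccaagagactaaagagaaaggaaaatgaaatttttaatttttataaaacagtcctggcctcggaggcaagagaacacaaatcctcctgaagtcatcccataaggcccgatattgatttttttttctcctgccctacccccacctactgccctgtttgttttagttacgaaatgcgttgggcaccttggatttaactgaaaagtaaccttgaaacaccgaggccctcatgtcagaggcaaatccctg
In Foxo4 the core began 133 bases before the start, in Foxo6 at 119, and in Foxo1 at 152 and 14. The stretches of Gata6, Tbx19 and Nkx2-1 held none. Across the members, 10 of 34 (29.4%) held at least 1 core, beside 27.2% of the promoters of 27457 genes. GCGTG is also one form of the core that hypoxia-inducible factors bind. Both strands were searched as well for cores of the families themselves. The forkhead letters TGTTTNC stood in 3 of 34 members (8.82%, beside 18.1% of all), AACAAT for SOX in 3 (8.82%, beside 10.3%) and CAAGTG for NKX2 in 4 (11.8%, beside 11.7%). AGATAA for GATA and AGGTGTGA for the T-box stood in 0 of 34, beside 10% and 0.958% of all genes. A match is a match of letters and no measured binding.

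Among the 57 members, 4 rose and 1 fell in the knockout at a Benjamini-Hochberg adjusted p under 0.05 over all genes tested (limma-trend). The 4 that rose were Foxo4, Foxa2, Gata6 and Tbx19, and the 1 that fell was Sox8. The 5 are 8.77% of the members, beside 10.8% of all genes tested, of which 4.50% were called higher and 6.26% lower. The median difference of the members was 0.13 on the log2(value + 1) scale, beside 0.01 for all genes tested, with 34 members above 0 and 23 below. Values of the genotypes did not overlap for 17 members, 12 higher and 5 lower in Ahr-KO. That is 29.8% of them, beside 34.3% of all genes (17.0% higher and 17.4% lower). Sox8 and Sox10, which are among the 5 lower ones, passed the level filter through their WT values alone. At an unadjusted p under 0.05 stood 12 of 57 members, a smaller share than the 27.9% of all genes (4300 of 15386). Of the 5 called members, only Foxo4 passed under all 16 alternatives in scaling, filter, pseudocount, variance model, blocking and libraries left out.

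**Figure D1:**
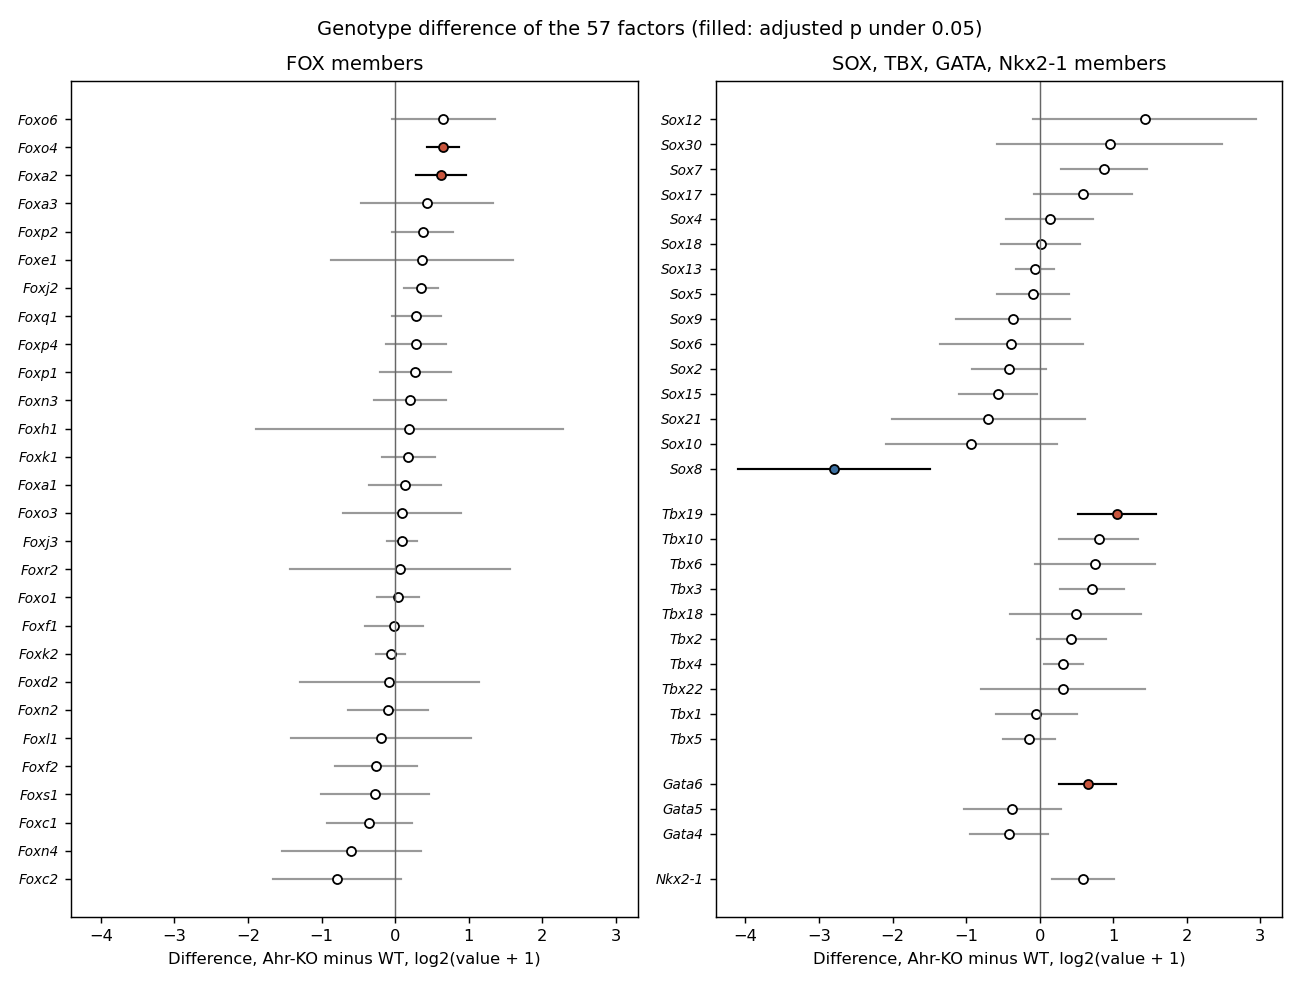
Difference of each of the 57 factors, Ahr-KO minus WT, on the log2(value + 1) scale (horizontal axis), with its 95% interval from limma, FOX genes on the left and the other families on the right. Filled points passed an adjusted p of 0.05: Foxo4, Foxa2, Gata6 and Tbx19 lie to the right of 0 and Sox8 to the left.

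The authors' scale does not take out a gene's length, so levels are compared between genotypes and not between genes. One read was worth a value of 0.806 to 1.4, and the libraries held about 12.9 to 23.6 M reads, fewest in library 2 of each group. Values summed to 17.81 to 18.01 M in WT and to 18.88 to 19.34 M in Ahr-KO. Ahr itself, checked against the labels, did not differ in its reads (3065.1 ± 288 against 3299.3 ± 799, adjusted p = 0.81), which checks nothing where an edit leaves the transcript in place. Just inside the level filter stood Sox30, at 2, 0.821 and 0 in WT and 4.84, 0.826 and 2.73 in Ahr-KO. Just outside it stood Foxr1, at 4, 2.46 and 0 and 0, 0.826 and 0. Of the 20 symbols below the filter, 12 were listed at 0 in every library.

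Nkx2-1 and its foregut partners Foxa2 and Gata6 were higher in each Ahr-KO library than in any WT library, and Foxa2 and Gata6 passed the test. Foxa2, a pioneer factor that opens chromatin at lung epithelial genes, had values of 895, 1031.5 and 803 in WT and 1175.1, 1653.7 and 1391.4 in Ahr-KO. The lowest knockout value of Foxa2 lay above the highest control value, and the rise was 1.54-fold (log2 0.62 ± 0.15 SE, adjusted p = 0.037). Gata6, a zinc-finger factor of alveolar epithelium that smooth muscle and endothelium also express, had 952, 896 and 953 in WT and 1125.1, 1838.8 and 1522.4 in Ahr-KO. Its control values were close together and its knockout values spread, and Gata6 rose 1.57-fold (log2 0.65 ± 0.17, adjusted p = 0.046). Nkx2-1 gave 3947.6, 4054.5 and 3003.4 in WT and 4320.7, 6720.6 and 5642.1 in Ahr-KO. Here too the groups did not overlap, but Nkx2-1 missed the threshold (log2 0.59 ± 0.18, 95% interval 0.17 to 1.01, adjusted p = 0.076). All 3 genes were highest in Ahr-KO library 1 and, within that group, lowest in library 0. With Ahr-KO library 0 left out, Foxa2, Gata6 and Nkx2-1 all passed (adjusted p = 0.025, 0.012 and 0.031). That fit was the only 1 of the 16 alternatives in which Nkx2-1 passed (highest adjusted p = 0.28).

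The calls of Foxa2 and Gata6 lay close to the threshold. Foxa2 lost its call on removal of WT library 0 or 2, or of library 1 or 2 of the knockouts (highest adjusted p = 0.12). Gata6 lost it on removal of any library but Ahr-KO library 0 (highest adjusted p = 0.15). With equal library totals neither Foxa2 nor Gata6 passed (adjusted p = 0.06 and 0.072), nor after quantile normalisation (0.051 and 0.066).

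Of 14 genes known as targets of NKX2-1, FOXA or GATA6 in lung epithelium, 3 rose, 0 fell and 11 did not pass, with a median of 0.45. The ones that rose were Hopx and Ager, which mark alveolar type 1 cells, and Etv5, a factor of alveolar type 2 cells. Hopx had 10143, 11734 and 8030.9 in WT and 20819, 21699 and 19663 in Ahr-KO, a 2.1-fold rise (adjusted p = 0.0071). Ager rose 1.61-fold (adjusted p = 0.034) and Etv5 1.62-fold (adjusted p = 0.019). The surfactant genes Sftpb (log2 0.55, adjusted p = 0.054) and Sftpc (log2 0.32, adjusted p = 0.36) did not pass. For 11 of the 14, all Ahr-KO values lay above all WT values, beside 17.0% of all genes. The summed value of the list was 604989 to 675633 in WT and 792233 to 902656 in Ahr-KO, and no gene of it was listed at 0. Of 7 smooth muscle markers 0 passed (median 0.36). Myh11, Tagln and Lmod1 were higher without overlap (log2 0.66, 0.54 and 0.50, adjusted p = 0.085, 0.12 and 0.089). Cnn1, Actg2, Des and Acta2 overlapped (log2 0.36, 0.15, -0.04 and -0.16). The summed level of the list was 23600.1 to 34005 in WT and 31707 to 50385 in Ahr-KO. In bulk tissue, more cells of a type and more RNA per cell cannot be told apart. The part of epithelial content in the rises of Foxa2 and Gata6, and of smooth muscle in that of Gata6, was not tested.

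**Figure D2:**
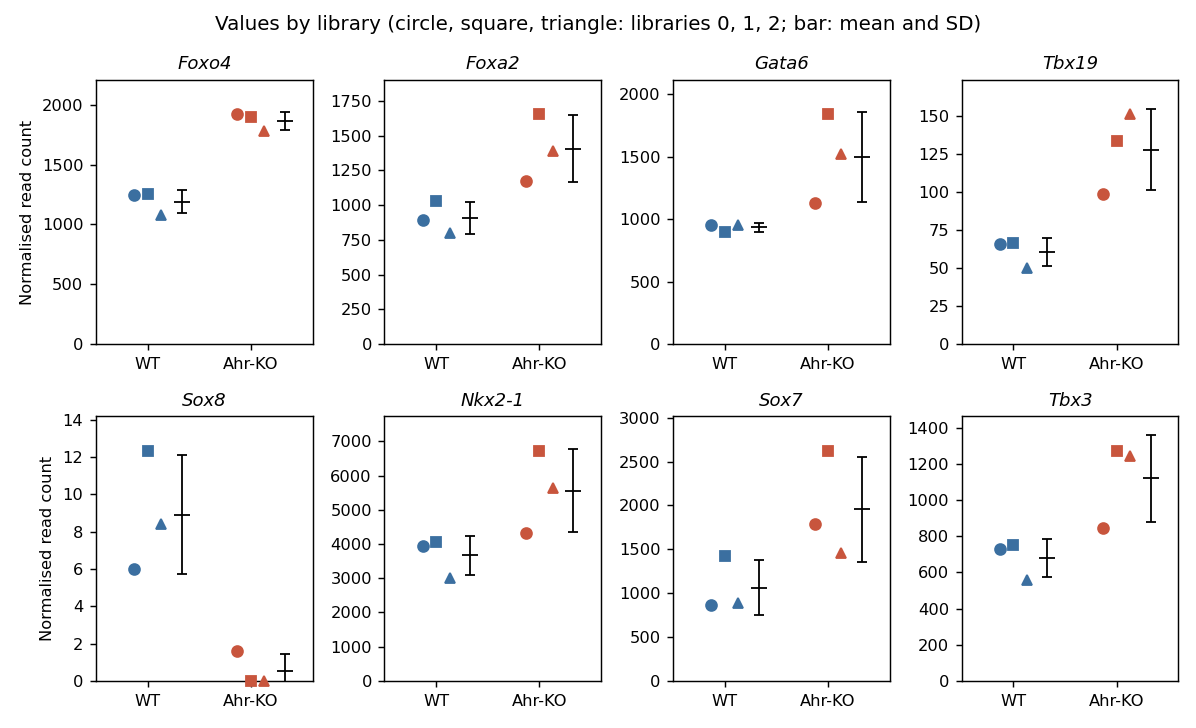
Normalised read count (vertical axis, starting at 0) in each WT and Ahr-KO library for the 5 called factors and for Nkx2-1, Sox7 and Tbx3, with the mean and SD of each group (n = 3 libraries; the lower bar of Sox8 in Ahr-KO ends at the axis). Foxo4 shows tight groups around 1190.5 and 1866.4, whereas Gata6, Nkx2-1 and Sox7 spread widely within Ahr-KO.

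The other epithelial members showed no called difference. Foxa1, the close relative of Foxa2, had 182, 215 and 144 in WT and 156, 212 and 226 in Ahr-KO, with overlapping groups (95% interval -0.35 to 0.63, adjusted p = 0.72). Foxa3, known from goblet cells, was low throughout, at 10.7 to 15 in WT and 12.1 to 28.9 in Ahr-KO. The FOXP repressors of airway and alveolar genes stood at log2 0.37 ± 0.18 for Foxp2, 0.28 ± 0.17 for Foxp4 and 0.28 ± 0.21 for Foxp1 (adjusted p = 0.22, 0.34 and 0.43). Sox2, which keeps the identity of the conducting airway, had 161, 174 and 171 in WT and 105, 173 and 109 in Ahr-KO (log2 -0.42 ± 0.22, adjusted p = 0.25). Only Ahr-KO library 1 reached the control level of Sox2. Sox9, a factor of the distal lung bud and of cartilage, ranged over 44.8 to 81 in WT and 32.7 to 61.3 in Ahr-KO (adjusted p = 0.53). Among airway secretory markers 2 of 6 fell and 0 rose (summed level 180946 to 223127 in WT, 170608 to 278671 in Ahr-KO). Nearly all of that sum came from Scgb1a1, which overlapped (log2 0.04). The 2 that fell were Scgb3a1 (422 ± 188 against 30.7 ± 20.5, adjusted p = 0.012) and Bpifa1 (563 ± 722 against 0.269 ± 0.465, adjusted p = 0.0096). Bpifa1 varied widely in WT, at 34, 269 and 1386.3. It passed the level filter through WT alone, so its selection is not independent of its fall. Among ciliated cell markers 2 of 7 fell and 1 rose. The part of these airway cells in the values of Sox2 was not tested.

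Of the 3 SOXF genes, which act together in endothelium, none passed the test. Sox7 had 868, 1428.1 and 892 in WT and 1787.6, 2620.6 and 1454.2 in Ahr-KO. The groups did not overlap, with only a small gap between WT library 1 and Ahr-KO library 2 (log2 0.87 ± 0.25, 95% interval 0.29 to 1.46, adjusted p = 0.066). Left without WT library 1, its highest control, Sox7 passed (log2 1.11, adjusted p = 0.04). In all, Sox7 passed in 2 of the 16 alternatives (highest adjusted p = 0.21). Sox17, which maintains arterial endothelium, had 1300.5, 1536.5 and 650.5 in WT and 1478.1, 1881.8 and 1587.9 in Ahr-KO. WT library 2 stood far below the other values, and with it left out the log2 difference of Sox17 was 0.21 in place of 0.59 (adjusted p = 0.31 and 0.23). Sox18, a factor of blood and lymphatic vessels, overlapped, with 1559.5, 2347.9 and 1569.5 in WT and 1424.1, 2487.6 and 1669.7 in Ahr-KO (95% interval -0.52 to 0.55). Whether the SOXF genes differed from each other in their response was not tested.

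Foxf1, which Hedgehog signals induce and which microvascular endothelium and fibroblasts of the lung express, had 5022.2, 3792.5 and 3407.6 in WT and 3311.6, 4465.2 and 4272.5 in Ahr-KO. The groups overlapped, and Foxf1 did not pass (log2 -0.01 ± 0.17, 95% interval -0.40 to 0.38, adjusted p = 0.97). Its neighbour Fendrr, a long noncoding RNA, stood at 1939.6 ± 578 against 2795.3 ± 395 (SD, n = 3; adjusted p = 0.13). The strand used in counting is not known, so reads of overlapping genes there cannot be told apart. Of 9 Hedgehog pathway genes, 0 rose and 0 fell (median 0.02). Their log2 differences ranged from -0.49 for Smo, lower without overlap (adjusted p = 0.096), to 0.71 for Shh, which overlapped (adjusted p = 0.13). Foxc2, a factor of lymphatic valves, had 15, 18.1 and 21 in WT and 15.3, 9.09 and 6.82 in Ahr-KO (log2 -0.79 ± 0.38, adjusted p = 0.21). Its relative Foxc1 stood at 44.7 ± 9.08 against 34.3 ± 1.43 (adjusted p = 0.4).

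Of 16 partner and target genes of SOXF factors, FOXF1 and GATA2 in endothelium, 1 rose and 0 fell (median 0.18). The one that rose was Tek, the angiopoietin receptor, with 8725.9, 7778.0 and 10364 in WT and 19401, 16997 and 13519 in Ahr-KO (1.85-fold, adjusted p = 0.016). Of 10 pan-endothelial markers, Ramp2 (1.66-fold, adjusted p = 0.011) and Pecam1 (log2 0.58, adjusted p = 0.044) rose. In the same list Emcn (log2 -0.35, adjusted p = 0.042) and Plvap (log2 -0.66, adjusted p = 0.047) fell. The summed level of these markers was 90642 to 121861 in WT and 108193 to 119241 in Ahr-KO, so the groups overlapped. In the lymphatic list 3 of 7 fell and 0 rose, with a median of -0.94. Those that fell were Prox1, the factor that sets lymphatic identity (34.3 ± 14.2 against 9.09 ± 2.38, adjusted p = 0.038), the chemokine Ccl21 (log2 -1.74, adjusted p = 0.0096) and the receptor Flt4 (log2 -0.72, adjusted p = 0.012). Mmrn1 and Reln stood at log2 -1.13 and -0.94 and did not pass. The summed level of the list was 21758 to 27013 in WT and 22265 to 27322 in Ahr-KO, most of it from Pdpn, which alveolar type 1 cells also express (log2 0.44), and Lyve1 (log2 0.17), neither of which passed. Their part in the values of Foxc2 and Sox18 was not tested.

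The T-box genes of lung mesenchyme lie in neighbouring pairs, Tbx2 beside Tbx4 and Tbx3 beside Tbx5 in the GRCr8 annotation, and none of the 4 passed. Tbx4, which directs the growth of lung mesenchyme, had 3110.9, 2600.1 and 2600.5 in WT and 3041.6, 3553.7 and 3811.4 in Ahr-KO. Ahr-KO library 0 lay within the control range, and the others above it (log2 0.32 ± 0.12, 95% interval 0.05 to 0.59, adjusted p = 0.12). Tbx2, a repressor that keeps mesenchyme dividing, stood at 975 ± 257 against 1285.9 ± 178 (log2 0.43 ± 0.20, adjusted p = 0.21). Tbx3, its close relative, had 731, 753 and 557 in WT and 845, 1272.7 and 1245.5 in Ahr-KO, without overlap. Tbx3 lay just outside the threshold (log2 0.71 ± 0.19, adjusted p = 0.0505). It passed in 2 of the 16 alternatives, without Ahr-KO library 0, its lowest knockout value (0.019), and in robust limma (0.049). The highest adjusted p of Tbx3 among them was 0.22. Tbx5 lay on the other side of 0, with 242, 242 and 287 in WT and 228, 203 and 266 in Ahr-KO (log2 -0.15 ± 0.15, adjusted p = 0.58).

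Gata4, known from heart and mesothelium, had 41, 48.5 and 53.2 in WT and 32.2, 38 and 35.5 in Ahr-KO, lower without overlap but not called (log2 -0.42 ± 0.23, adjusted p = 0.28). Gata5, its relative, had 384, 283 and 264 in WT and 151, 305 and 288 in Ahr-KO (adjusted p = 0.44), with Ahr-KO library 0 far below the rest. Foxf2, a relative of Foxf1 in fibroblasts and pericytes, stood at 293 ± 73.7 against 244 ± 59.8 (adjusted p = 0.53). Of 12 fibroblast markers 3 fell and 0 rose (median -0.51), and their summed level was 26399 to 31521 in WT and 18137 to 23601 in Ahr-KO. The 3 were Col1a1, the highest of the list in WT (9506.9 ± 1545 against 3639.5 ± 379), Col14a1 (log2 -1.49) and Pi16 (log2 -1.27). Without overlap, 5 of the 12 were lower and 0 higher. Pdgfra (log2 0.14), Npnt (log2 0.04) and Tcf21 (log2 -0.27) overlapped. The part of fibroblasts in the values of Foxf2 was not tested. Lungs of rodents carry cardiac muscle along the pulmonary veins, and 10 heart muscle genes summed to 1140.6, 2255.1 and 7141.2 in WT and 2624.2, 2642.9 and 1782.9 in Ahr-KO. WT library 2 was highest, and none of the genes passed the test (median -0.47). Tbx20, a cardiac T-box factor below the level filter, was highest in the same library. It had 0, 1.64 and 11.2 in WT and 0.806, 0.826 and 0 in Ahr-KO. Among controls, Gata4 and Tbx5 were also highest in WT library 2, whereas Gata5 was lowest there. That library held the highest WT value for 40.0% of all genes tested. Of 6 mesothelial markers, Krt19, which epithelium also expresses, rose (1.94-fold, adjusted p = 0.0054) and 5 did not pass (median -0.39). Among the latter were Wt1 (log2 -0.72, lower without overlap, adjusted p = 0.12), Upk3b (log2 -0.71) and Upk1b (log2 -0.45). The summed level of the list was 6654.0 to 8917.8 in WT and 11145 to 13282 in Ahr-KO, most of it from Krt19. The part of heart muscle or mesothelium in the values of Gata4, Gata5 and Tbx5 was not tested.

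Foxo4 had the lowest adjusted p of all members. FOXO factors drive genes of cell cycle arrest, stress defence and protein breakdown when insulin and growth factor signals are low. Foxo4 had 1243.6, 1250.8 and 1077.1 in WT and 1919.8, 1899.2 and 1780.2 in Ahr-KO. Each group was tight, and the gap between them was wider than the range of either. The rise of Foxo4 was 1.57-fold (log2 0.65 ± 0.09, 95% interval 0.43 to 0.87, adjusted p = 0.0086). It passed in each fit that left out 1 library (highest adjusted p = 0.041) and lay between 0.56 and 0.69 over the 16 alternatives.

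The other FOXO genes did not pass. Foxo1, the FOXO factor of endothelium and lymphocytes, had 619, 582 and 634 in WT and 730.2, 560.3 and 607 in Ahr-KO (95% interval -0.24 to 0.32, adjusted p = 0.86). Foxo3 varied widely within Ahr-KO, with 1377.4, 490.1 and 711 against 594, 917 and 722 in WT (95% interval -0.70 to 0.89). Foxo6, low in these lungs, had 18, 33.7 and 19.6 in WT and 36.3, 38 and 35.5 in Ahr-KO, without overlap (log2 0.66 ± 0.30, adjusted p = 0.21). A difference between Foxo4 and its relatives was not tested. Of 17 genes known as FOXO targets, 1 rose, 1 fell and 15 did not pass (median 0.38). Trim63, a ubiquitin ligase best known from muscle, rose from 119 ± 19.8 to 211 ± 9.6 (adjusted p = 0.024). Sod2, the mitochondrial superoxide dismutase, had 2941.0, 2605.8 and 2820.1 in WT and fell to 1938.3, 1881.8 and 1907.1 in Ahr-KO (log2 -0.54, adjusted p = 0.0096). The cell cycle inhibitor Cdkn1b (log2 0.51, adjusted p = 0.062) and the insulin receptor substrate Irs2 (log2 0.42, adjusted p = 0.056) did not pass.

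Sox8 was read in each WT library and in 1 of the Ahr-KO libraries, at levels of a few reads. It belongs to the SOXE genes with Sox9 and Sox10, which are known from glia, cartilage and testis. Sox8 had 6, 12.3 and 8.39 in WT and 1.61, 0 and 0 in Ahr-KO, or about 27 reads against 2. As a ratio of reads scaled to depth, Sox8 was 14.7 times higher in WT, with an exact 95% interval of 3.68 to 127 that covers counting error only. The fitted log2 difference of Sox8 was -2.80 ± 0.56 (adjusted p = 0.021), and -5.07 with a pseudocount of 0.1. Sox8 passed the level filter through its WT values alone, so its selection is not independent of its fall. The call of Sox8 was lost on removal of WT library 0 or 1, or of library 1 or 2 of the knockouts (highest adjusted p = 0.081).

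Sox10, the factor of Schwann cells, had 3, 5.75 and 2.8 in WT and 0.806, 2.48 and 1.36 in Ahr-KO, or 12 against 5 reads in all (adjusted p = 0.27). The groups did not overlap, and Sox10 too passed the level filter through WT alone. Among 8 tested genes of Schwann cells and glia, 1 fell and 7 did not pass (median -0.80). The one that fell was Gfra3, the artemin receptor subunit, with 339, 329 and 277 in WT and 160.4, 157 and 169 in Ahr-KO (adjusted p = 0.0092). Fabp7 was listed at 0 throughout. The summed level of the glial list was 1930.3 to 3186.6 in WT and 2428.9 to 3166.6 in Ahr-KO. Most of that sum came from Erbb3 (log2 0.55, adjusted p = 0.2), which did not pass. Of the 8 tested genes, 5 were lower without overlap and 1 was higher, beside 17.4% and 17.0% of all genes. Among the 5 was Cdh19, with 2, 1.64 and 2.8 in WT and 0.806, 0 and 1.36 in Ahr-KO. Cdh19 passed the level filter through WT alone, so its place among the 5 is not independent of that filter. The part of glial content in the fall of Sox8 was not tested.

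SOXD and SOXC genes held no call. Sox13, found in lymphocytes and vessel walls, stood at 3356.9 ± 363 against 3200.8 ± 280.1 (95% interval -0.32 to 0.19). Of 7 tested cartilage genes that SOX9, SOX5 and SOX6 drive, Col11a1 fell (25.2 ± 4.73 against 1.07 ± 1.86, adjusted p = 0.01) and 6 did not pass, with a list median of 0.35. Col11a1 passed the level filter through its WT values alone, so its selection is not independent of its fall. Col11a2 was higher in Ahr-KO without overlap (135 ± 66.9 against 258 ± 34.7, adjusted p = 0.098). Sox4, a factor of progenitors and lymphocytes, had 1305.5, 1205.6 and 1298.2 in WT and 965, 2181.0 and 1285.0 in Ahr-KO (adjusted p = 0.78). The tight control values of Sox4 lay within the wide range of the knockouts. Sox12, another SOXC gene, had 43, 51.7 and 6.99 in WT and 70.1, 60.3 and 81.8 in Ahr-KO. Its log2 difference of 1.43 ± 0.66 (adjusted p = 0.2) was 0.56 with WT library 2 left out. T cell markers fell in 7 of 8 cases, NK and cytotoxic markers in 5 of 6 and B cell markers in 5 of 6, and none of these rose. Their summed levels were 1787.0 to 2380.2, 2168.9 to 2629.9 and 1194.6 to 1801.4 in WT and 823 to 1067.9, 827 to 1186.3 and 535 to 689 in Ahr-KO. Their part in the values of Sox4, Sox13 and Foxo1 was not tested.

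**Figure D3:**
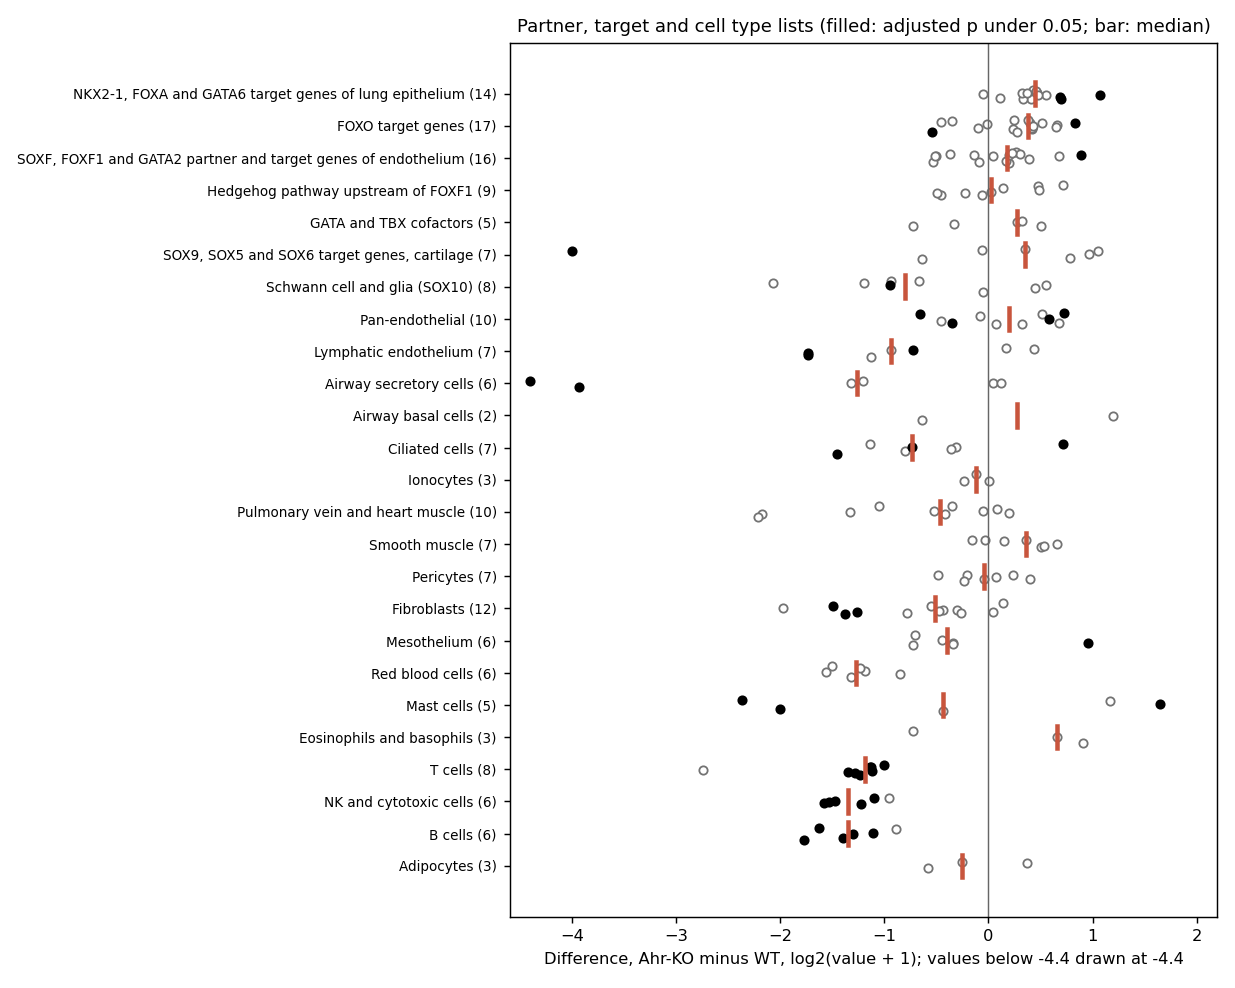
Differences of single genes, Ahr-KO minus WT, on the log2(value + 1) scale (horizontal axis), for lists of partners, targets and cell type markers, with the number of tested genes in brackets. Filled points passed an adjusted p of 0.05 and the thick bar is the list's median, which is 0.45 for the epithelial targets and -1.19 for the T cell markers.

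Tbx19 had the largest fold among the 4 members that rose. It is best known as the factor that turns on pro-opiomelanocortin in the pituitary. Tbx19 had 66, 66.5 and 50.4 in WT and 99.1, 134 and 151 in Ahr-KO, a 2.07-fold rise without overlap (log2 1.05 ± 0.23, adjusted p = 0.029). Its call was lost on removal of WT library 0 or 1, or of library 1 or 2 of the knockouts (highest adjusted p = 0.11). Tbx10, another T-box gene, had 54, 65.7 and 85.3 in WT and 117, 102 and 138 in Ahr-KO, also without overlap (log2 0.80 ± 0.23, adjusted p = 0.065). Tbx10 passed in 2 of the 16 alternatives, quantile normalisation (adjusted p = 0.032) and without WT library 2, its highest control (0.033). The highest adjusted p of Tbx10 among them was 0.21.

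Foxj2, a widely expressed forkhead gene, had 1897.3, 1847.8 and 1628.3 in WT and 2110.0, 2259.5 and 2465.0 in Ahr-KO, without overlap, and did not pass (log2 0.35 ± 0.10, adjusted p = 0.064). Foxj3 (95% interval -0.11 to 0.29) and Foxk2 (-0.26 to 0.14) had intervals well inside a 2-fold difference. Foxc1, Foxf2 and Foxq1 follow each other among coding genes in the GRCr8 annotation, and their log2 differences were -0.35, -0.26 and 0.29. Sox15 had 71, 60.4 and 49.2 in WT and 39.6, 41.7 and 38.5 in Ahr-KO, lower without overlap but not called (adjusted p = 0.15). Its values were not whole reads in 5 of 6 libraries, as reads shared with another gene would give, so its level is uncertain. The same holds for Foxh1, in 4 libraries.

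Of the 52 members that were not called, 26 had a 95% interval that stayed within a 2-fold difference in either direction and 26 had one that reached beyond it. For the latter, a change of that size is not excluded. Ahr-KO library 0 held the lowest Ahr-KO value for 30 of 57 members (52.6%, beside 36.8% of all genes tested). WT library 2 held the lowest WT value also for 30 of 57 (52.6%, beside 40.2% of all genes).

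**Figure D4:**
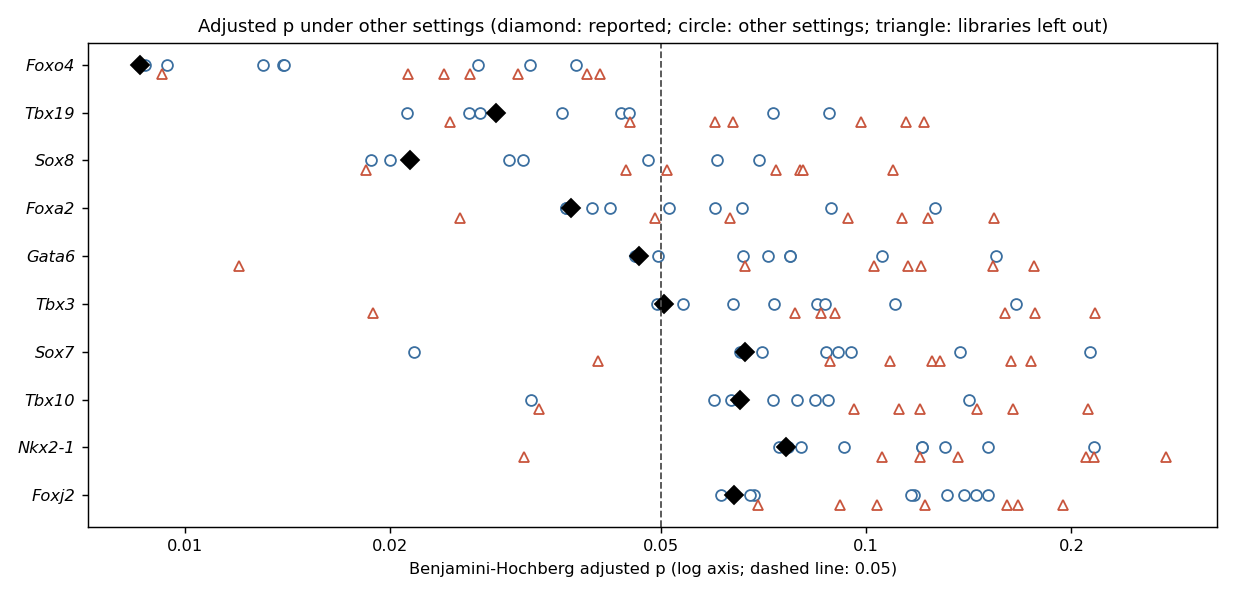
Benjamini-Hochberg adjusted p (horizontal log axis) of 10 members as reported (diamond), under other settings (circles) and with libraries left out (triangles), with a dashed line at 0.05. Every Foxo4 point lies left of the line, and the points of Tbx19, Sox8, Foxa2 and Gata6 lie on both sides.

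Among the genes set aside, Foxj1 fell from 1099.7 ± 164 to 662 ± 124 (adjusted p = 0.03) and Eomes from 108 ± 30.2 to 45.3 ± 1.73 (adjusted p = 0.026). Gata2, at 2930.1 ± 767 against 4723.7 ± 607, missed the threshold (adjusted p = 0.061), as did Tbx21 (0.086), Foxm1 (0.11), Foxp3 (0.44) and Gata3 (0.79).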

How the data were processed

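Total lung RNA was profiled by bulk RNA-seq, per the labels' protocols. The deposited table holds 1 normalised signal per gene symbol and library. From the values, it looks like an estimated read count over a library factor: 96.4% to 97.9% of those above 0 were whole multiples of the library's step, within 0.05. The submitters' processing notes name FastQC and the rn6 build, and no source used here names aligner, counter or strand. Depth was taken from the step. Columns were assigned to groups by name, not to single samples, since they count from 0 and the titles from 1; 0 columns were unused. No label names separate animals, so a p-value reflects the scatter among libraries, possibly technical.

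Genes reaching 1 in 3 or more libraries were tested on log2(value + 1) with limma 3.58.1 (R 4.3.3), with a mean-variance trend and genotype as the single term, 2-sided, Benjamini-Hochberg adjusted. The code was tested on simulated data. Folds are these differences on the linear scale. Named were all called members, known lung and vessel regulators and the 3 members of lowest p in each family. Up to 3 genes were to be named from each list with 2 or more calls, which was done for only some of these lists. Other members and list genes were named after their values were seen. Members and lists were chosen with earlier results of these data known. Alternatives changed scaling, filter, pseudocount, variance model, threshold and libraries, and included limma-voom and a replicate block.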

Additional observations from a re-analysis of the deposited data

How the results depend on the processing

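Of 511 values of the 32 members named by rule, 468 kept their side of the threshold, 36 fell short of it, 7 newly passed and 0 reversed a call. The 468 include uncalled members that stayed uncalled. All 36 belong to 4 of the 5 called members. Of the alternatives run, Tbx19 passed in 9 of 16, Sox8 in 8 of 15, Foxa2 in 6 of 16 and Gata6 in 4 of 16. Among the 511 values, the sign was that of the reported value in 493 and the other in 18, all of uncalled members (Foxa1, Foxf1, Foxo1, Foxo3, Sox4 and Sox18). It was kept in all alternatives run by 26 of the 32, and by 39 of all 57 members. As reported, 1655 genes were called, with 4 members higher and 1 lower. Genes called numbered 952 without the trend, 451 with no filter, 553 without both libraries numbered 2, 2853 at an adjusted p under 0.10 and 676 at a fold of at least 2. Members called higher numbered 2 with equal totals, without the trend and with limma-voom, 1 with no filter, without both libraries numbered 2 and at a fold of at least 2, and 9 at an adjusted p under 0.10. Members called lower numbered 0 with no filter, with a minimum value of 10 (where Sox8 was not tested) and without both libraries numbered 2. Leaving out 1 library gave 407 to 1834 genes, 1 to 6 members higher and 0 to 1 lower. The total moved by over 1.5 times on removal of library 0 (705) or 1 (871) of the WT group, or of library 1 (529) or 2 (407) of the knockouts. Of the calls 41.8% were higher as reported, 25.4% with equal totals, 25.3% with limma-voom and 31.6% without the trend. The cause was not tested. A planned edgeR test on recovered reads was not run, because the values, though mostly whole multiples of the step, did not pass the check for whole reads.

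With the replicate block, 899 genes were called, 3 members higher (Foxa2, Foxo4 and Sox7) and 0 lower. Same-numbered libraries share only a number: their deviations from the group means correlated at -0.10, 0.07 and -0.07, and not every library correlated best with its own number.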
